A study of Mus musculus with 4 samples.

Results

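Intergenic peaks are the stretches of open chromatin to which the deposited peak annotation assigns no gene, neither as a promoter nor as a distal peak. They were taken from the peak annotation of both ATAC libraries on chromosomes 1 to 19, X and Y by that class alone. The Mertk knockout library held 1131 of them among 106319 peaks, and the wild-type library 576 among 72302. The study set livers of Mertk knockout mice against livers of wild-type mice, both after bile duct ligation, which blocks bile flow, so every sample carries the ligation. Mertk encodes a receptor tyrosine kinase with which macrophages take up dying cells. Each genotype gave 1 ATAC library and 1 RNA library from the same nuclei (10x Genomics Multiome), with no replicate, so all values describe these libraries and no test between genotypes was possible. The labels used here give neither the number, sex or strain of the animals, nor the time after ligation, nor the deleted part of Mertk.

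ATAC marks DNA that a transposase can reach in intact nuclei, mainly promoters and enhancers. Long stretches of mammalian genomes hold no coding gene. Such gene deserts often flank genes of developmental regulators and adhesion molecules, and some of them hold enhancers that act on a gene far away along the chromosome. The deposited annotation does not record a target gene for an intergenic peak, so the genes named here are neighbours by position.

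The nuclei behind the libraries differed in depth and in the cell types whose genes were open. The knockout library held 83996145 ATAC fragments in 5339 nuclei and the wild-type library 40858512 in 5828, a ratio of 2.06. Among the fragments in nuclei, 46.0% fell in that library's own peaks in the knockout and 33.7% in the wild type. The libraries shared 44 nucleus barcodes, which is 0.824% of the knockout and 0.755% of the wild-type nuclei. Of 20 hepatocyte genes, 20 had a promoter peak in the knockout library and 4 in the wild-type library. Over 20946 coding genes these shares were 65.9% and 58.9%. The same list had 197 and 40 assigned peaks, with 3 to 24 a gene in the knockout and 0 to 8 in the wild type. The 7 genes with no wild-type peak were Alb, Cps1, Cyp2e1, Cyp3a11, Foxa1, Foxa3 and Serpina1a. Stellate cell and fibroblast genes had 86 peaks in the knockout library and 23 in the wild type over 16 genes, and cholangiocyte genes 71 and 26 over 14. Endothelial genes had 279 and 173 peaks over 18 genes, and macrophage and monocyte genes 148 and 136 over 16. Neutrophil genes had 34 and 35 peaks, T and NK cell genes 104 and 86, and B cell genes 144 and 128. Over peaks of all kinds the knockout list held 1.47 times as many as the wild-type list. In bulk peak lists, fewer nuclei of a type and less open chromatin per nucleus cannot be told apart. The part of depth and cell makeup in the differences below was not tested.

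Few intergenic peaks touched a known transcript start, and the sequence at those starts is shown because it is the only stretch of these peaks that the reference tables hold. The starts lay in 5 knockout and 6 wild-type intergenic peaks. The 9 starts all belonged to long non-coding RNA genes, which make RNA that is not translated. Only the starts of Gm38542 and Gm39311 lay in peaks of both libraries. Each window below runs from 250 bases before the start to 50 bases from it, is read 5′ to 3′ on the strand of the gene, and has the start at base 251 (RefSeq, GRCm38.p6). Gm38542 lies on the minus strand at chr3:78919584-78919883, 142 kb from the nearest coding gene, Rapgef2. Gm39311 lies on the plus strand at chr9:23581024-23581323, 95.6 kb from Bmper. Gm29924 lies on the minus strand at chr5:51289281-51289580, in a peak of the knockout library alone, 164 kb from Ppargc1a. Gm41259 lies on the minus strand at chr15:6044655-6044954, in a knockout peak with no wild-type overlap, 255 kb from Dab2. The start of 5430437J10Rik lies on the plus strand at chr15:5496068-5496367, in a wild-type peak with no knockout overlap, 252 kb from Ptger4. Capitals mark letters of a searched motif.
Gm38542: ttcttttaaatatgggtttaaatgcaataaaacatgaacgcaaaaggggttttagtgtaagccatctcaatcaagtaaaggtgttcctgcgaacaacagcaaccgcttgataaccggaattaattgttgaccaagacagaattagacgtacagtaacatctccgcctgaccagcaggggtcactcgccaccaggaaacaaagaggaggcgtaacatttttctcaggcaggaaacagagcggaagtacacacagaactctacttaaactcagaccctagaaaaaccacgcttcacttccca
Gm39311: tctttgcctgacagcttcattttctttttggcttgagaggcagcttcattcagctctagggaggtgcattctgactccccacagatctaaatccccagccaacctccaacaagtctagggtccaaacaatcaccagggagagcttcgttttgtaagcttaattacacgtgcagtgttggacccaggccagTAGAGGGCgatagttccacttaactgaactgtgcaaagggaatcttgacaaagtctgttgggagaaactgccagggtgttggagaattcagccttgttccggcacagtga
Gm29924: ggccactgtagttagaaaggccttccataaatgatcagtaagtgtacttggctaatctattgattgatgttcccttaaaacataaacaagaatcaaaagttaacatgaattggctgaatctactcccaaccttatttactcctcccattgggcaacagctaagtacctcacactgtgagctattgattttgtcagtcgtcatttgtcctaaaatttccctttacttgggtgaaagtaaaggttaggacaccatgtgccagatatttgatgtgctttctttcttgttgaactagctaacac
Gm41259: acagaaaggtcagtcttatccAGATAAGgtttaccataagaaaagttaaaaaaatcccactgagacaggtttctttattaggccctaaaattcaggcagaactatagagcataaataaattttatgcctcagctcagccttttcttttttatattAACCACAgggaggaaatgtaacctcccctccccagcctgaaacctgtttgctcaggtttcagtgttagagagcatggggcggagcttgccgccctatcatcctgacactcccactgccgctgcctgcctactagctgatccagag
5430437J10Rik: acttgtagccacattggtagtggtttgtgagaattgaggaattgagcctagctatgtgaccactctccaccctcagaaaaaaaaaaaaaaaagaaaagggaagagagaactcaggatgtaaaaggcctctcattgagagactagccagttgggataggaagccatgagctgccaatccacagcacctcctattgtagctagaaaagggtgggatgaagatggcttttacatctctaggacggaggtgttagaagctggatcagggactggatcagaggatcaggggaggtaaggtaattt

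Leaving out chromosome 18, for which no start windows were used, there were 1058 knockout and 540 wild-type intergenic peaks, of which 0.473% and 1.11% held a start. Among distal peaks this was 1.29% in the knockout library and 1.36% in the wild-type library, and among promoter peaks 65.7% and 68.4%. Intergenic peaks with a start were thus rare in both lists. The class rule partly fixes this, since a peak at the start of a gene in the deposited annotation is not classed as intergenic. The same rule bears on which kinds of gene the 9 starts belong to. Both Gm41259 and 5430437J10Rik start inside the stretch between Ptger4 and Dab2, which holds more intergenic peaks than any other. The capitals in Gm39311 (bases 191 to 198) are letters of the motif of CTCF, a protein that anchors chromatin loops. Those in Gm41259 are letters of the GATA motif (bases 22 to 28) and, on the other strand, of the RUNX motif (bases 156 to 162). Both strands of all 9 windows were searched for 10 motifs. The CTCF letters (CAGNGGGC or TAGNGGGC) were in 1 of the 9. They are in 12.1% of 32851 RefSeq start windows of the same length, and in 8.57% of the 11588 at long non-coding RNA starts. GATA letters (AGATAAG) were in 2 of the 9, against 3.04% of all windows and 3.78% of long non-coding RNA windows. RUNX letters (TGTGGTT) were in 1, against 5.27% and 6.29%. PU.1 letters (GAGGAAGT) were in 1, against 3.20% and 3.33%, and FOX letters (TGTTTAC) in 1, against 3.65% and 4.83%. AP-1 (TGANTCA), ETS (CCGGAAGT), HNF1 (GTTAATNAT), CEBP (TTGCNNCAA) and HNF4 (CAAAGTCCA) letters were in none of these 9 windows. They are held by 0.475% to 7.81% of all windows and by 0.518% to 9.31% of long non-coding RNA windows. No motif overlapped another in the windows shown. The 9 windows had a median GC content of 43.7%, from 37.0% to 48.7%. Over all long non-coding RNA starts the median was 48.3%, and over coding gene starts 56.3%.

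Intergenic peaks made up a larger share of the open regions in the knockout library than in the wild-type library. They were 1.06% of knockout peaks (95% interval 1.003% to 1.127%) and 0.797% of wild-type peaks (0.733% to 0.864%). The knockout list held 1.96 times as many of them, while it held 1.54 times as many distal peaks and 1.19 times as many promoter peaks. The excess of knockout peaks was thus greater the farther a class lies from genes. Intervals here are exact (Clopper-Pearson) and cover counting error only, and neighbouring peaks are not independent of each other. Among as many of the widest knockout peaks as the wild-type list holds, the intergenic share was 1.21%. This cut by width favours the class, since knockout intergenic peaks had a median width of 892 bp, against 879 bp for distal and 881 bp for promoter peaks. It kept 878 of the 1131 intergenic peaks and 72302 of all 106319, so it does not show what the share is at equal depth.

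Sharing between the libraries was low. An overlap of at least 1 bp with any wild-type peak was found for 285 of 1131 knockout intergenic peaks, 25.2% (22.7% to 27.8%), against 49.3% of all knockout peaks. In the other direction, 285 of 576 wild-type intergenic peaks overlapped a knockout peak, 49.5% (45.3% to 53.6%), against 72.4% of all wild-type peaks. In both libraries the share lay below that of each distance class of distal peaks. Promoter peaks were shared in 78.9% of knockout and 93.5% of wild-type cases, and distal peaks 1 to 20 kb from their gene in 45.9% and 68.7%. The shares were 44.1% and 67.2% at 20 to 50 kb, 40.1% and 63.6% at 50 to 100 kb, and 34.4% and 57.9% at 100 to 200 kb. Outside genes, sharing was thus lower at each step of distance in either list, down to the intergenic peaks.

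**Figure D1:**
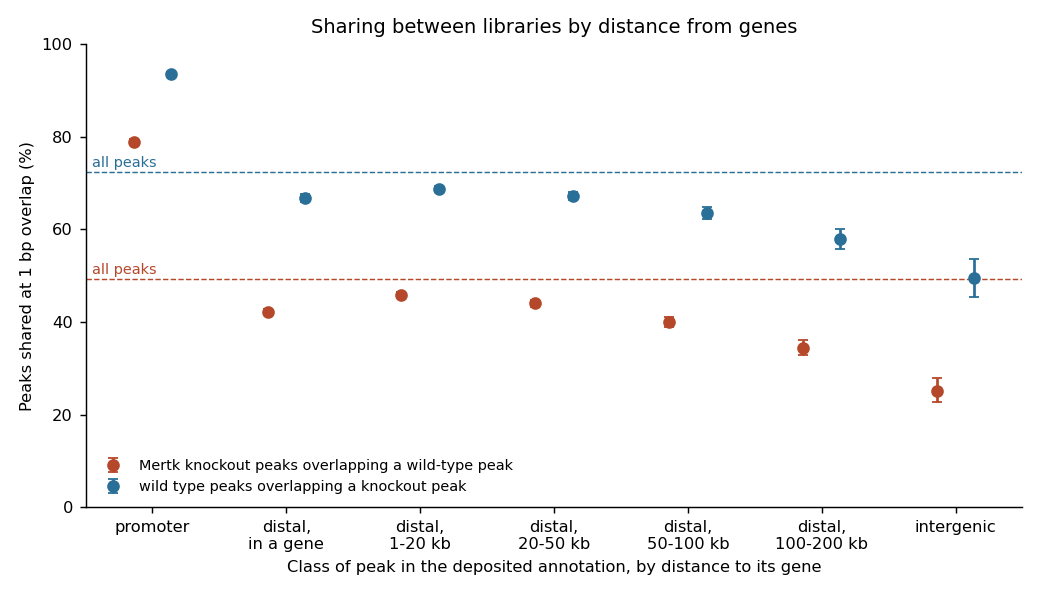
Share of peaks (%, vertical axis) with an overlap of 1 bp or more in the other list, for promoter peaks, distal peaks by distance to their gene, and intergenic peaks; red points are the knockout list, blue points the wild-type list, bars are exact 95% intervals and dashed lines are all peaks of a library. Intergenic peaks lie lowest in both lists, at 25.2% in the knockout and 49.5% in the wild type.

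The threshold between distal and intergenic peaks is visible in the deposited distances. The farthest distal peak lay 199.976 kb from its gene in the knockout list and 199.992 kb in the wild-type list. No distance is recorded for intergenic peaks. Shared peaks matched closely in place: the overlap had a median of 844 bp in either list, 94.8% of the knockout and 95.9% of the wild-type peak. All 285 shared knockout peaks met an intergenic wild-type peak, and 284 of the 285 shared wild-type peaks met an intergenic knockout peak, the other 1 meeting a distal peak.

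Peaks found in a single library stood differently towards the other list. There were 846 knockout intergenic peaks without a wild-type overlap, 74.8% against 50.7% of all knockout peaks, and 291 wild-type intergenic peaks without a knockout overlap, 50.5% against 27.6%. The nearest wild-type peak to such a knockout peak was a median of 193 kb away (quartiles 40.6 and 434 kb). The nearest knockout peak to such a wild-type peak was 21.2 kb away (quartiles 5.55 and 93.9 kb). A peak of the other library lay within 10 kb of 11.3% of these knockout peaks and of 34.0% of these wild-type peaks. So most knockout-alone peaks lay in places with no wild-type peak nearby, whereas wild-type-alone peaks more often had knockout peaks close by, and the knockout list is the denser of the lists. Widths hardly differed: intergenic peaks had a median width of 892 bp in the knockout and 884.5 bp in the wild type, against 879 and 872 bp for distal peaks. Peaks found in 1 library alone had medians of 891 bp in the knockout and 880 bp in the wild type, and shared peaks 892 and 888 bp.

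The widest peaks lay beside genes of varied roles. The widest shared knockout peaks had Gtdc1 (chr2:44503767-44504932), Dach2, Ttll7, the predicted gene Gm826 and Khdrbs3 as nearest coding genes, with widths from 1051 to 1166 bp. The widest shared wild-type peaks, from 1098 to 1164 bp, lay nearest to Gata3 (chr2:8770379-8771542), Clec14a, Rap2b, Cdh26 and Gata6. Gata3 and Gata6 encode zinc-finger transcription factors, and Clec14a an endothelial lectin. The widest knockout-alone peaks, from 1184 to 1267 bp, lay nearest to the predicted gene Gm12695 (chr4:97099412-97100678), Tns3, Bod1l, Robo1 and Auts2. The widest wild-type-alone peaks, from 1097 to 1255 bp, lay nearest to Ctps2 (chrX:163242764-163244018), Marcks, Tle4, Pard3 and Rnd3. For the 5 knockout-alone peaks the nearest wild-type peak was 27.1 to 893 kb away, and for the 5 wild-type-alone peaks the nearest knockout peak was 5.37 to 23.3 kb away.

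The class was checked against a second annotation, the RefSeq genes of GRCm38.p6. By coding genes the label held: 89.7% of knockout and 89.1% of wild-type intergenic peaks lay at least 200 kb from every coding gene start, and the median distance to the nearest coding gene edge was 276 kb in the knockout and 263 kb in the wild type. By all RefSeq genes it did not. The nearest gene start of any kind was a median of 54.4 kb away in the knockout and 51.2 kb in the wild type, and 11.8% of knockout and 11.3% of wild-type peaks lay at least 200 kb from all of them. Inside a RefSeq long non-coding RNA gene lay 91 knockout peaks (8.05%) and 50 wild-type peaks (8.68%), and inside a coding gene 42 and 15. Intergenic here therefore means far from coding genes, often with a non-coding gene close by. Among peaks inside a long non-coding RNA gene, 33.0% of knockout and 58.0% of wild-type peaks were shared, with intervals of 23.5% to 43.6% and 43.2% to 71.8%.

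Intergenic peaks came in loose groups. Another intergenic peak of the same library lay within 10 kb of 513 knockout peaks, 45.4% (42.4% to 48.3%), and of 305 wild-type peaks, 53.0% (48.8% to 57.1%). The median gap to the nearest was 13.6 kb in the knockout and 8.13 kb in the wild type. Knockout peaks were thus the less grouped, although more numerous. For distal peaks the order was the other way round, 79.3% in the knockout and 72.9% in the wild type, and the median gaps were 3.26 and 4.31 kb. Peaks with such a neighbour were shared in 27.7% of knockout and 50.2% of wild-type cases, and those without in 23.1% and 48.7%, with overlapping intervals in each list.

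**Figure D2:**
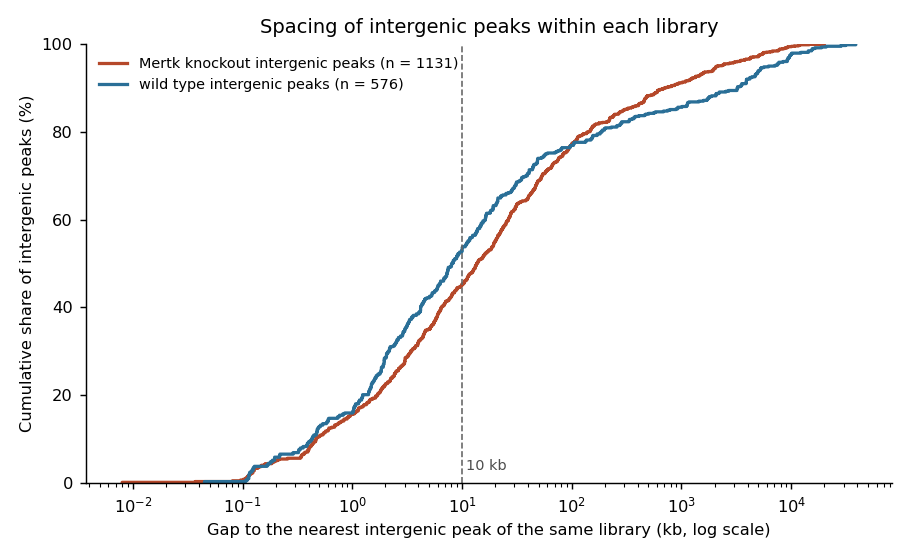
Cumulative share of intergenic peaks (%, vertical axis) against the gap to the nearest intergenic peak of the same library (kb, log axis), red for the 1131 knockout and blue for the 576 wild-type peaks; the dashed line marks 10 kb. At 10 kb the knockout curve stands at 45.4% and the wild-type curve above it at 53.0%.

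Merging the peaks of both libraries gave 1420 regions, of which 846 held knockout peaks alone, 292 wild-type peaks alone and 282 peaks of both. Linking regions within 10 kb left 685 on their own and 194 pairs, and formed 90 clusters of at least 3 regions, of which 51 had 3 and 12 had at least 5. The clusters held 254 knockout peaks (22.5%) and 193 wild-type peaks (33.5%). Peaks of both libraries stood in 62 clusters, knockout peaks alone in 19 and wild-type peaks alone in 9.

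The cluster with the most regions lay between Snx13 and Ahr on chromosome 12. Snx13 encodes a sorting nexin of endosomes, and Ahr the aryl hydrocarbon receptor, a ligand-activated transcription factor that senses xenobiotics. It held 18 regions over 67.1 kb (chr12:35264916-35331997), 117 kb from Snx13 and 166 kb from Ahr. The regions carried 14 knockout and 12 wild-type peaks, and 8 of them held both. Both libraries thus had about the same open stretch here. Among the regions of both libraries were chr12:35269204-35270125, chr12:35294402-35295391, chr12:35319181-35320218 and chr12:35329352-35330392. Beyond the cluster, the span between these genes held no further intergenic peak.

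The second cluster lay 228 kb from Sall1 on chromosome 8. Sall1 encodes a zinc-finger transcription factor of kidney and limb development that also marks microglia, and Tox3 on its far side a high-mobility-group protein. This cluster held 11 regions over 49.1 kb (chr8:89272167-89321248), with 11 knockout and 2 wild-type peaks. Both wild-type peaks lay in regions with a knockout peak, at chr8:89279568-89280519 and chr8:89284709-89285644. The third lay between the predicted gene Gm34768 and Itga8, an integrin subunit of mesenchymal cells, with 7 regions, 7 knockout and 5 wild-type peaks.

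Some other large clusters held peaks of 1 library alone. The cluster of 7 regions between Wdr72 and Onecut1 (chr9:74316671-74333051) held 7 knockout peaks and 0 wild-type peaks. Onecut1 encodes a transcription factor of hepatocytes and bile duct cells, 529 kb from that cluster. Onecut1 had 1 promoter peak and 8 distal peaks in the knockout list, and 0 and 2 in the wild-type list. The nearest coding gene, Wdr72, lay 33.5 kb from the cluster. Wdr72 had 1 promoter and 3 distal peaks in the knockout list, and 0 and 0 in the wild-type list. The cluster of 6 regions beside Cdh26, a cadherin gene on chromosome 2, held 6 knockout and 0 wild-type peaks. Between Fut8, a fucosyltransferase gene, and the predicted gene Gm6657, a cluster held 5 knockout and 0 wild-type peaks, and another of 5 and 0 lay between Wac and Fzd8, a Wnt receptor gene. The reverse was seen between Pard3 and Nrp1, where a cluster of 6 regions (chr8:127829371-127861607) held 0 knockout and 6 wild-type peaks. Between Tle3, a corepressor gene, and Rplp1, a ribosomal protein gene, the 6 regions held 6 knockout and 6 wild-type peaks, 5 of the regions holding both. The cluster of 5 between H2al1j and Bcor on the X chromosome held 3 and 2 peaks, with no region in common.

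Gene deserts were taken as the spans between neighbouring RefSeq coding genes. Of 711 such spans of at least 500 kb, 291 (40.9%) held an intergenic peak. These spans held 83.9% of knockout and 80.2% of wild-type intergenic peaks, and spans of at least 1000 kb held 49.1% and 42.9%. The distance rule that defines the class favours long spans, so these shares are partly fixed by it. Spans of at least 500 kb free of genes of any kind held 14.7% of knockout and 16.7% of wild-type members. Among spans of any length, 164 held knockout members alone, 24 wild-type members alone and 161 members of both. Of these 349 spans, 89 held 1 member in all and so could not hold both libraries. Knockout members were shared in 37.4% of cases in spans under 500 kb or inside coding genes, in 23.6% in spans of 500 to 1000 kb, and in 22.3% in longer spans. For wild-type members these shares were 58.8%, 43.7% and 50.2%.

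The peaks were concentrated. There were 41 spans with at least 10 members, and they held 694 of all 1707 members (40.7%), 404 of the knockout and 290 of the wild-type library. More knockout than wild-type members stood in 23 of them, more wild-type in 13, and 5 had equal numbers. Over all members 66.3% came from the knockout library. The interval of the knockout share lay below that value in 6 of the 41 spans, the largest of them Ptger4 to Dab2, Pard3 to Nrp1, St3gal1 to Zfat and Gm40892 to Flrt2. It lay above in 3, which were Igfbp3 to Tns3, Sall1 to Tox3 and Slitrk5 to Gpc5. These intervals are a description of counts, not a test of genotype.

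**Figure D3:**
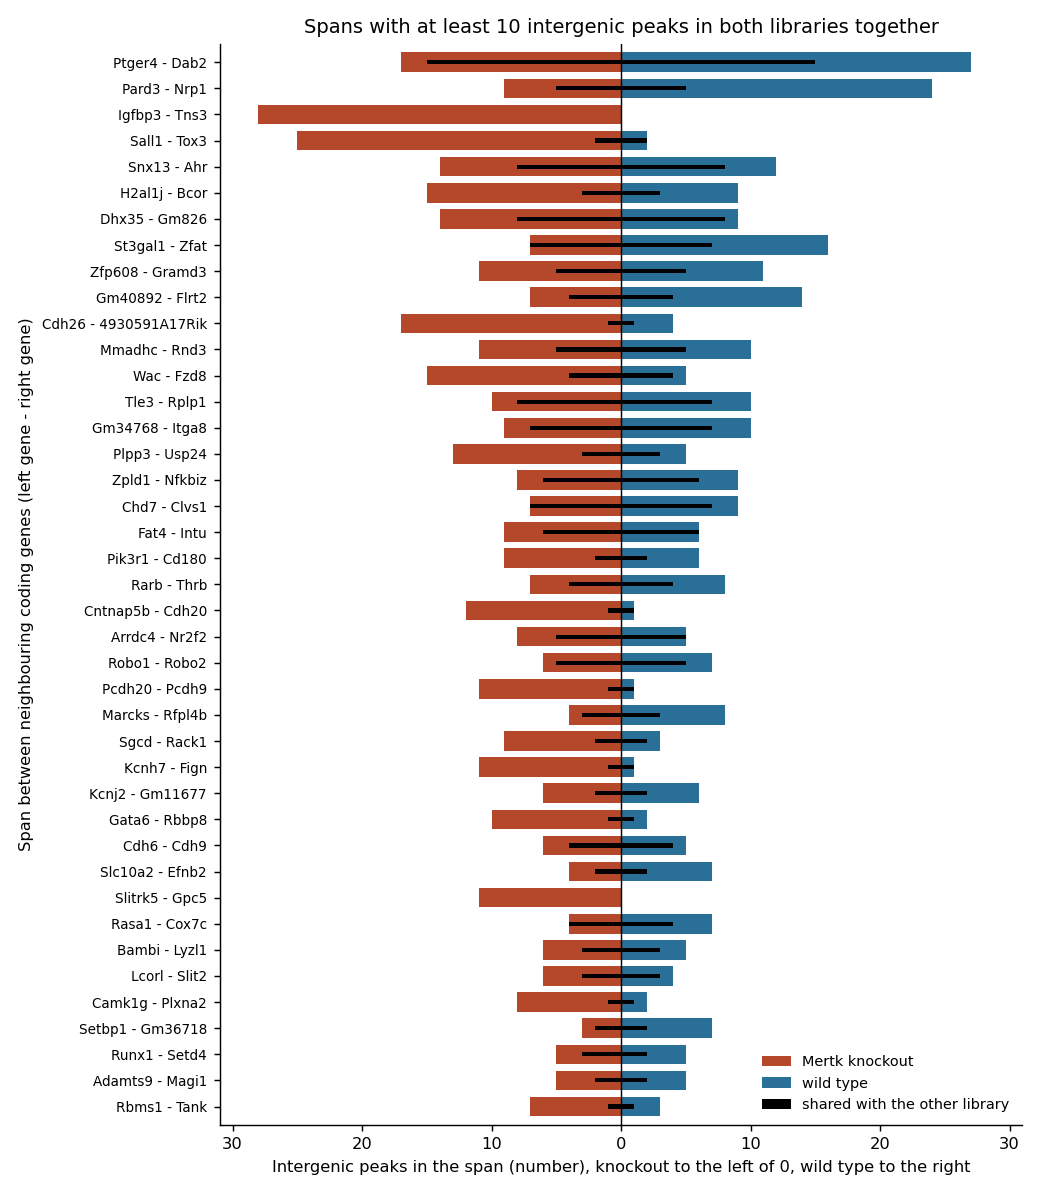
Number of intergenic peaks (horizontal axis) in each of the 41 spans with at least 10, knockout in red to the left of 0 and wild type in blue to the right; the thin black bars are the peaks shared with the other library. The counts run from 28 knockout and 0 wild-type peaks between Igfbp3 and Tns3 to 9 and 24 between Pard3 and Nrp1.

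The span with the most members leaned to the wild type. Between Ptger4 and Dab2 on chromosome 15 stood 17 knockout and 27 wild-type intergenic peaks, of which 15 in each list were shared. Ptger4 encodes a receptor for prostaglandin E2, and Dab2 an endocytic adaptor protein. The span is 1056 kb long, and its knockout members stretched from 202 to 837 kb from Ptger4, its wild-type members from 202 to 843 kb. Nearly all knockout peaks there had a wild-type partner, and 12 wild-type peaks had none. The distal peaks of the same span numbered 13 in the knockout and 21 in the wild type.

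Between Pard3 and Nrp1 on chromosome 8 stood 9 knockout and 24 wild-type intergenic peaks, with 5 shared. Pard3 encodes a scaffold of cell polarity, and Nrp1, neuropilin 1, a co-receptor for semaphorins and vascular endothelial growth factor. The knockout members stretched from 62.0 to 501 kb from Pard3, the wild-type members from 5.13 to 536 kb. Distal peaks of the span were even, 13 in the knockout and 14 in the wild type. The deposited annotation assigned 42 distal peaks to Pard3 in the knockout and 7 in the wild type, and 36 and 31 to Nrp1. Such peaks lie in the gene or up to 200 kb from it, so they can include peaks of the span. Between St3gal1, a sialyltransferase gene, and Zfat, a zinc-finger gene, 7 knockout and 16 wild-type peaks stood, and all 7 knockout peaks were shared. Before Flrt2, an adhesion receptor gene, there were 7 and 14.

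The opposite pattern was seen in several spans. Between Igfbp3 and Tns3 on chromosome 11 stood 28 knockout intergenic peaks and 0 wild-type peaks, a knockout share of 100% (87.7% to 100%). Igfbp3 encodes a binding protein of insulin-like growth factors, and Tns3 a tensin of focal adhesions. The knockout peaks stretched over 886 kb, from 304 kb beyond Igfbp3 to 25.8 kb before Tns3. Distal peaks were present in both lists in this span, 5 in the knockout and 4 in the wild type, and the wild-type ones lay near the genes. Tns3 was nearest to 15 knockout members and had 2 promoter peaks in either list, with 44 distal peaks in the knockout and 38 in the wild type. Igfbp3 was nearest to 13 and had 1 promoter peak in the knockout list and 0 in the wild-type list.

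**Figure D4:**
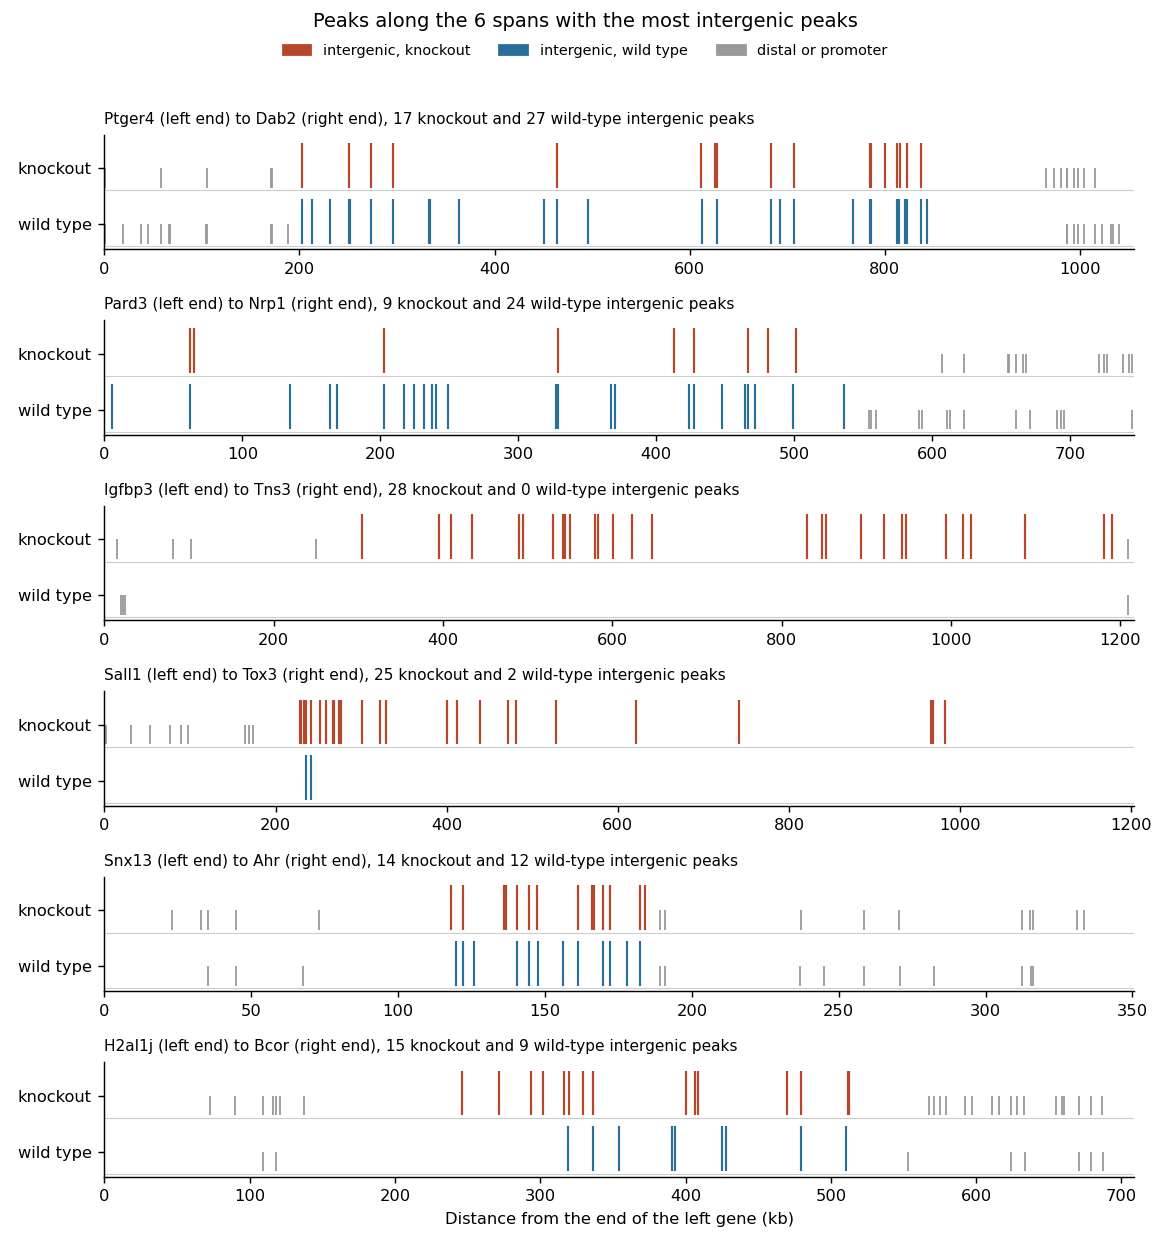
Positions of peaks along the 6 spans with the most intergenic peaks, as distance from the end of the left gene (kb, horizontal axis), the knockout row above the wild-type row; tall coloured lines are intergenic peaks and short grey lines distal or promoter peaks. Between Igfbp3 and Tns3 the 28 knockout lines have no wild-type counterpart, while 15 of the 17 knockout lines between Ptger4 and Dab2 have one.

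Between Sall1 and Tox3 there were 25 knockout and 2 wild-type intergenic peaks, and both wild-type peaks were shared. The knockout members began 228 kb from Sall1 and reached 982 kb, with a median of 321 kb. Sall1 had no promoter peak in either list, but 24 distal peaks in the knockout and 1 in the wild type. Distal peaks within the span numbered 9 and 0, so intergenic and distal peaks leaned the same way. Next to Gata6 on chromosome 18, up to Rbbp8, there were 10 knockout and 2 wild-type intergenic peaks, and 22 and 4 distal peaks. The span from Cdh26 to a clone-named gene beside Cdh4 held 17 and 4, with 24 and 8 distal peaks.

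The 8 longest occupied deserts held 40 knockout and 12 wild-type intergenic peaks. Between Pcdh20 and Pcdh9, protocadherin genes on chromosome 14 with 4542 kb between them, there were 11 knockout peaks and 1 wild-type peak, with 1 and 0 distal peaks. Between Cntnap5b and Cdh20 (4278 kb) there were 12 and 1, with 3 and 1 distal peaks. Some of these genes had few peaks of their own: Pcdh20 had 1 promoter and 4 distal peaks in the knockout and 0 and 0 in the wild type, and Cntnap5b 0 and 8 in the knockout and 0 and 1 in the wild type. Between Zeb2, the gene of a zinc-finger repressor, and Acvr2a (3697 kb), the counts were 3 knockout and 5 wild-type members. Among shorter deserts, between Slitrk5 and Gpc5 (3409 kb), a synaptic adhesion gene and a glypican gene, there were 11 and 0 intergenic peaks, and 11 and 7 distal peaks. Between Cdh6 and Cdh9 (3552 kb) the counts were nearly even, 6 and 5 with 4 shared, as they were between Robo1 and Robo2, 6 and 7 with 5 shared. Long deserts thus differed among each other in the split between libraries.

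Several deserts held similar numbers in both lists. Between Mmadhc and Rnd3 there were 11 knockout and 10 wild-type intergenic peaks, between Zfp608 and Gramd3 11 and 11, and between Tle3 and Rplp1 10 and 10. Between Chd7, a chromatin remodeller gene, and Clvs1 there were 7 and 9, with all 7 knockout peaks shared. Between Rarb and Thrb, genes of nuclear hormone receptors, there were 7 and 8, with 4 shared. Other deserts had a knockout share near the 66.3% over all members. Between Dhx35 and the predicted gene Gm826 on chromosome 2 there were 14 knockout and 9 wild-type peaks, 60.9% from the knockout, with 8 shared and with 47 and 46 distal peaks. Between Arrdc4 and Nr2f2, a nuclear receptor gene, there were 8 and 5, 61.5% from the knockout, with all 5 wild-type peaks shared.

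Across chromosomes the knockout excess was uneven. Chromosome 2 held the most members in either list, 114 in the knockout (10.1%) and 66 in the wild type (11.5%). On chromosome 15 the counts were nearly equal, 66 knockout and 63 wild-type members, and 34 were shared. On chromosome 11 there were 68 and 15, on chromosome 1 74 and 22, and on chromosome 5 50 and 14. The ratio of knockout to wild-type members was 4.53 on chromosome 11, 4.5 on chromosome 19 (18 and 4 members), 4.33 on chromosome 17 (13 and 3), 3.57 on chromosome 5 and 3.36 on chromosome 1, against 1.05 on chromosome 15, 1.24 on chromosome 10 and 1.31 on chromosome 12. The Igfbp3 to Tns3 span gave 28 of the 68 knockout members on chromosome 11. The Ptger4 to Dab2 and St3gal1 to Zfat spans gave 43 of the 63 wild-type members on chromosome 15. Chromosome totals were thus carried in part by a few deserts.

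**Figure D5:**
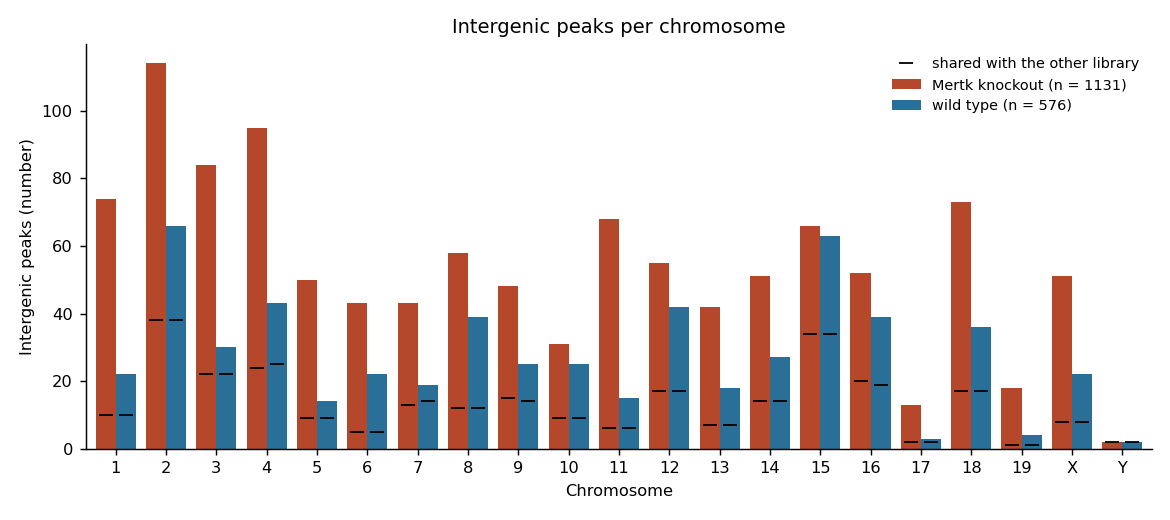
Number of intergenic peaks (vertical axis) on each chromosome, red bars for the 1131 knockout peaks left of blue bars for the 576 wild-type peaks; black ticks mark the peaks shared with the other library. Chromosome 2 has the most in both lists (114 and 66), and chromosome 15 the most even counts among autosomes (66 and 63).

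The X chromosome held 51 knockout members (4.51% of members, 3.38% to 5.89%) and 22 wild-type members (3.82%, 2.41% to 5.73%). Intergenic peaks were 2.28% of its knockout and 1.36% of its wild-type peaks, against 1.06% and 0.797% over all chromosomes. Among chromosomes other than Y this was the highest knockout share, while in the wild type chromosomes 15 (2.09%), 18 (1.60%), 16 (1.47%) and 12 (1.44%) stood higher. Divided by the Mb of desert of at least 500 kb, all X members came to 0.867 in the knockout and 0.374 in the wild type. On chromosome 2 these values were 2.82 and 1.63. They count members outside such deserts too, so they are not densities within deserts. Of the X members, 15.7% of knockout and 36.4% of wild-type peaks were shared. Of the 122 knockout and 65 wild-type members that also lay at least 200 kb from every RefSeq gene start and outside every gene, 0 stood on the X in either list. Chromosome Y held 2 members in each list, and both were shared.

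Genes were assigned by the nearest coding gene. Of 21887 coding genes, 397 (1.81%) were nearest to a knockout intergenic peak and 221 (1.01%) to a wild-type intergenic peak. Both libraries had 183 of these genes, 46.1% of the knockout and 82.8% of the wild-type genes. Promoter peaks were counted over the genes whose symbol is also in an Ensembl gene name table, 20946 in all. A promoter peak was present for 250 of 376 such neighbours in the knockout (66.5%), against 65.9% of all 20946, and for 128 of 211 in the wild type (60.7%), against 58.9%. Neighbours of intergenic peaks thus had open promoters about as often as other genes. The genes with the most members were Dab2 (12 knockout and 14 wild-type), Sall1 (20 and 2), Snx13 (12 and 10), Rnd3 (11 and 10), Pard3 (4 and 16) and Zfp608 (9 and 11). They were followed by Fzd8 (15 and 5), Flrt2 (6 and 12), Ptger4 (5 and 13), Cdh26 (14 and 4), Plpp3, a lipid phosphatase gene (13 and 5), and Rplp1 (9 and 9). Ppargc1a, a coactivator gene of mitochondrial and gluconeogenic programmes, had 12 knockout and 0 wild-type members, and Gpc5 13 and 0. Both were chosen after their values were seen. The span between Adgra3 and Ppargc1a held 7 knockout members, and a cluster of 4 knockout peaks (chr5:51867908-51877568) lay inside the RefSeq gene Ppargc1a.

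Adhesion and axon guidance genes often stood beside these peaks. Of 63 listed genes, 20 were nearest to a knockout member and 12 to a wild-type member, against 1.81% and 1.01% of all coding genes. On either side of a span with a member stood 34 of the 63 in the knockout and 22 in the wild type (54.0% and 34.9%), against 2.73% and 1.63% of all coding genes. Many genes of this list are known to lie beside long deserts, and the shares are a description. Those with the most members were Flrt2 (6 knockout and 12 wild-type), Robo2, an axon guidance receptor gene (8 and 7), Pcdh20 (11 and 1) and Cdh6, a cadherin gene (4 and 5). Of 48 developmental transcription factor genes, 12 were nearest to a knockout member and 8 to a wild-type member. The leading ones were Sall1 (20 and 2), Nr2f2 (8 and 5, with 5 shared), Gata6 (7 and 2) and Sox6 (9 and 0).

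Of the 120 genes of the 8 cell type lists, 7 (5.83%) were nearest to a knockout member and 5 (4.17%) to a wild-type member, against 1.81% and 1.01% of all coding genes. These lists are short, and 0 of 10 or 20 genes is near what the share over all coding genes gives. Of 20 hepatocyte genes, 10 neutrophil genes and 10 B cell genes, 0 were nearest to a member in either library. Of 18 endothelial genes, Nrp1 was nearest to 5 knockout and 8 wild-type members, and Cdh5, the gene of VE-cadherin, to 1 and 0. Of 16 macrophage and monocyte genes, Zeb2 had 1 knockout and 4 wild-type members. Of 16 T and NK cell genes, Gata3 had 3 and 2, Tox 4 and 1, and Id2 0 and 1. Sox9, a bile duct transcription factor and 1 of 14 cholangiocyte genes, had 1 and 0, and Dcn, the decorin gene and 1 of 16 stellate cell and fibroblast genes, had 2 and 0. Of 15 immediate-early and stress genes, Myc had 2 and 1.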

How the data were processed

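ATAC peaks and nuclei were read from 1 ATAC and 1 RNA library per genotype. Per the file headers, the authors' pipeline was cellranger-arc 2.0.2 on mm10. Peaks were called per library, with settings not given in the sources used here. Each deposited peak list gives positions in bp for 1 library, with no height or score. Per-barcode counts of fragments and UMIs, deposited as raw whole numbers, served for depth alone. Peaks on other contigs (44 knockout and 43 wild-type) were left out. Genes came from RefSeq GRCm38.p6, since no genome was used here. Of the authors' promoter rows with a RefSeq start of the same symbol, 92.5% in the knockout and 93.7% in the wild type lay within 1000 bp of it. Gene ends without a strand were both taken as possible starts. Overlaps were computed with Python 3.11.15, numpy 2.4.6, pandas 2.3.3 and scipy 1.17.1, checked against bedtools 2.31.1 with equal counts (285 in each library), and tested on simulated data. Figures used matplotlib 3.10.9.

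Named genes are the 12 nearest to the most members, the flanks of the 10 largest clusters and 8 longest occupied spans, the neighbours of the 5 widest peaks per class, and up to 4 per list of 11 gene lists. Spans were named for holding at least 10 members, and the windows at transcript starts were chosen, after values were seen; 5 of 9 windows are shown. Not every gene of the rule is described. The members and lists were chosen with earlier results of these data known.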

Additional observations from a re-analysis of the deposited data

How the results depend on the processing

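Alternatives numbered 14 and gave 74 values, of which 47 lay within the 95% interval of the reported value. The order of the libraries held in 34 of 37 comparisons. For the shared share this order follows from list size, since about as many peaks are shared in either list (285 in each at 1 bp). With peaks of at least 500 bp or autosomes only, all values stayed within that interval.

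With as many of the widest knockout peaks as the wild-type list holds, the knockout intergenic share was 1.21%, its median width 902 bp and its share with a neighbour within 10 kb 33.4%, and the shared share of wild-type members was 37.7%. With members at least 200 kb from every RefSeq gene start and outside every RefSeq gene (122 knockout and 65 wild-type), the intergenic share was 0.115% in the knockout and 0.0899% in the wild type, the shared share 19.7% and 38.5%, the X share 0% and 0% (upper bounds 2.98% and 5.52%), the median distance to a gene start 265 and 254 kb, the share in deserts of at least 500 kb 99.2% and 98.5%, and the knockout share with a neighbour 31.1%. There the X order was lost and the order of widths turned (888 bp in the knockout and 891 bp in the wild type). The share with a neighbour was 35.0% in the knockout and 42.2% in the wild type within 5 kb, 68.9% and 74.0% within 50 kb, and 50.2% and 60.9% among merged regions. To coding gene starts alone the median distance was 327 and 310 kb. In spans of at least 1000 kb stood 49.1% and 42.9%, and in spans free of genes of any kind 14.7% and 16.7%, where the order turned. The cut to the widest knockout peaks raised the knockout median width and intergenic share by its own rule. That cut could only lower the shared share of wild-type members, since it removes possible partners. Keeping far members alone raises the distance to a gene start and lowers the intergenic share by its rule. Limits of 5 and 50 kb can only lower and raise the share with a neighbour. Coding genes alone can only raise the distance, and stricter spans can only lower the share in them. Why the remaining values moved was not tested. Requiring an overlap of at least 50% moved no shared share outside its interval.

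Letters, GC content and repeats inside the peaks, and the alternatives to them, were not run, since no genome of the build was used here. No paired analysis was possible because each genotype has 1 library. A region without a peak in a library was not called open there at that library's depth, which does not show that it was closed; the part of depth was not tested. Genotype, cell makeup, depth and animal cannot be told apart.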
